A study of Mus musculus with 123 samples.

Results

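Single-embryo RNA-seq was used to follow 10 genes of the core cell cycle machinery: the D-type cyclins Ccnd1, Ccnd2 and Ccnd3, cyclin A2 (Ccna2), cyclin B1 (Ccnb1), the cyclin-dependent kinases Cdk1, Cdk2, Cdk4 and Cdk6, and the CDK inhibitor Cdkn1b. They were taken by gene name from a table of 29022 genes, and all 10 passed the filter on low counts. Mouse embryos lacking the pluripotency factor Oct4 (the gene Pou5f1) or Sox2 were compared with their controls as morulae at E2.75 and as inner cell masses (ICMs) of E3.75 (early) and E4.5 (late) blastocysts. The embryos formed 16 groups, 68 embryos in the Oct4 line and 55 in the Sox2 line.

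By design, KO embryos had neither a maternal nor a zygotic supply of the factor. Their mothers carried 2 floxed alleles, which ZP3-Cre removes in the growing oocyte, and their fathers were heterozygous for a null allele marked by mKO2 (Oct4) or EGFP (Sox2), both driven by the PGK promoter. Control (Ctrl) embryos came from the same matings but had the father's intact allele. They lacked the maternal supply and, by this mating, an intact copy of the gene from the mother. In MWT embryos the mother's gene was intact. KO and Ctrl embryos were told apart by the reporter's fluorescence, the cells were of B6C3F1 background, and all mothers had been superovulated. The paper describes the reporters as weak until the 8-cell (mKO2) and blastocyst (EGFP) stages. Its authors also mapped the reads to the reporter cassettes to check KO genotypes. Each KO and Ctrl group held 8 embryos and each MWT group 5 to 8. The ICM groups of every genotype had been collected at E2.5, cultured in KSOM with the MEK inhibitor PD0325901 at 1 μM and freed from trophectoderm by immunosurgery, whereas morulae had not. Stage, culture, inhibitor and isolation therefore cannot be told apart in a comparison of morula with ICM.

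The embryos held 525755 to 1344035 UMIs (median 897407), so that 1 UMI was worth 0.81 to 1.80 CPM (counts per 1000000 of an embryo's UMIs in the 13923 genes tested over all embryos, multiplied by its TMM scaling factor of 0.893 to 1.10). Pou5f1 was between 13.5 and 91.3 CPM in the Oct4 Ctrl embryos and between 0 and 4.69 CPM in the Oct4 KO embryos, and Sox2 was lower in Sox2 KO than in Sox2 Ctrl embryos at each of the 3 stages (log2 fold change -2.97 ± 0.55 SE in the morula, -2.12 ± 0.31 in the early and -3.35 ± 0.32 in the late ICM). Sox2 was at 3.06 to 32.1 CPM in Sox2 Ctrl and 0 to 3.38 CPM in Sox2 KO morulae, at 71.3 to 188.9 CPM and 7.82 to 38.4 CPM in early ICMs, and at 93.8 to 279 CPM and 8.33 to 32.8 CPM in late ICMs, so Sox2 UMIs were counted in all 16 Sox2 KO ICMs. Per the study's methods, the loxP sites of the floxed Sox2 allele lie upstream of the transcription start and in the 3′ UTR. The source of the Sox2 UMIs in KO ICMs was not tested. In bulk RNA of a whole morula or ICM, fewer cells of a type and less RNA per cell cannot be told apart.

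D-type cyclins bind Cdk4 and Cdk6 in G1 and start the phosphorylation of the retinoblastoma protein, cyclin E and then cyclin A activate Cdk2 for entry into and passage through S phase, and cyclin A and cyclin B drive Cdk1 into mitosis. Cdkn1b (p27) binds and restrains the cyclin E and cyclin A complexes of Cdk2. Pluripotent cells of the mouse are known for a short G1 phase in which these kinases stay active, and cleavage divisions draw at first on maternal stores of cell cycle transcripts.

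In the build used for the table (mm10), the D-type cyclin genes Ccnd1, Ccnd2 and Ccnd3 lie at chr7:144929931-144939925, chr6:127125162-127152193 and chr17:47505051-47599691. The cyclins of S phase and mitosis, Ccna2 and Ccnb1, lie at chr3:36564865-36572150 and chr13:100778650-100786570. Of the kinases, Cdk1 lies at chr10:69335146-69352938, Cdk2 at chr10:128697939-128705031, Cdk4 at chr10:127063534-127067920 and Cdk6 at chr5:3341485-3531008, and the inhibitor Cdkn1b lies at chr6:134920401-134925513. The libraries were enriched for 3′ ends, and the strand setting of the counting is not given in the sources used here. The 3′ ends of Ccnd1, Ccnd3, Ccna2 and Cdk4 are covered by a gene on the other strand (LTO1, Bysl, Exosc9 and Tspan31), and Cdk2 and Ccnd2 overlap Pmel and 9330179D12Rik away from their 3′ ends, so reads of such a pair may not be separable. The value of the overlapping gene is given beside each change between stages or between KO and Ctrl embryos that passed the test (Ccnd2 had none). Ccnb1 and Ccnd3 each have a pseudogene in the annotation (Ccnb1-ps and Ccnd3-ps), with which reads could be shared.

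Promoter sequences from RefSeq (GRCm38.p6) were matched for 7 of the 10 members: Ccnd3 (with 2 entries), Ccnb1, Cdk1, Cdk2, Cdk4, Cdk6 and Cdkn1b. The 250 bases before the annotated start are shown for 4 members that passed the test between morula and early ICM in 1 or both lines: the mitotic pair Ccnb1 and Cdk1, which were lower in the ICM (Cdk1 passed in the Oct4 line and not in the Sox2 line), and Cdk2 and its inhibitor Cdkn1b, which were higher in both. Cdk6, which fell in both lines, and Ccnd3 and Cdk4, which each passed in 1 line, are not shown. Capitals mark 3 motifs searched on both strands: CCAAT, the box bound by NF-Y (ATTGG on the reverse strand), TTTGAA, the core of the cell cycle homology region, and TTTCCCGC, an E2F site (GCGGGAAA on the reverse strand). The motifs do not overlap each other in these 4 windows. The RefSeq starts of Ccnb1 and Cdk1 lie inside the gene bounds given above, so the last bases of these 2 windows fall within the genes as annotated there, and the RefSeq start of Cdk2 lies outside its bounds.
Ccnb1, chr13:100786487-100786736, minus strand: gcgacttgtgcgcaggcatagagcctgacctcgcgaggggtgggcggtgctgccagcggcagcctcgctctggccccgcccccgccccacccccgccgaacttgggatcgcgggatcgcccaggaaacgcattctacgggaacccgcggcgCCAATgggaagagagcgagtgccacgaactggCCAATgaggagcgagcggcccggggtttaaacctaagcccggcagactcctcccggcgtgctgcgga
Cdk1, chr10:69352913-69353162, minus strand: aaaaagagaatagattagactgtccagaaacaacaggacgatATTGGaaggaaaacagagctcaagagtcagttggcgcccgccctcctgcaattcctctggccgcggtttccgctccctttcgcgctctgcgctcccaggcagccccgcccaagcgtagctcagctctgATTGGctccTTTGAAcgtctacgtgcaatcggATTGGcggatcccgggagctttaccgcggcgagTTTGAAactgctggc
Cdk2, chr10:128705052-128705301, minus strand: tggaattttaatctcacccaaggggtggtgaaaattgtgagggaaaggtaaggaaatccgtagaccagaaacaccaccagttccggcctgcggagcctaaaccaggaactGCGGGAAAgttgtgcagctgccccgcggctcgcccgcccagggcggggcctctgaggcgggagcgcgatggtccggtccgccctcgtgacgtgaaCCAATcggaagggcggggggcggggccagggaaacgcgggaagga
Cdkn1b, chr6:134920151-134920400, plus strand: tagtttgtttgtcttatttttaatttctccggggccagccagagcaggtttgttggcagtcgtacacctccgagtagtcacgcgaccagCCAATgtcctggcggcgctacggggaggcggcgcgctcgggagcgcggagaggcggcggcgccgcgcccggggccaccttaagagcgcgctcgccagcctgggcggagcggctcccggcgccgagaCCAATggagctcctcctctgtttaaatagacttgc

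A CCAAT box was found in the windows of 5 of the 7 members (for Ccnd3 in 1 of its 2 windows), compared with 33.8% of 32851 RefSeq promoter windows of the same length. The first is a count per member and the second a share per window. It occurred 2 times in Ccnb1 (starting 99 and 67 bases before the start site) and 3 times in Cdk1, all on the reverse strand (208, 80 and 48 bases before it), while 10.1% of all windows held 2 or more. Cdk2 held 1, at 45 bases, and Cdkn1b held 2, at 161 and 35 bases. TTTGAA was found only in Cdk1 among the 7, at 71 and 15 bases (16.0% of all windows held it), and TTTCCCGC only in Cdk2, on the reverse strand at 140 bases (0.895% of all windows). The octamer ATGCAAAT was in none of the 7 windows and in 1.60% of all windows. The CCAAT box of Ccnb1 at 67 bases and the TTTGAA of Cdk1 at 15 bases are in the stretch inside those gene bounds. CCAAT was thus shared by members that fell and members that rose between morula and ICM.

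Embryo-to-embryo spread differed among the members. The biological coefficient of variation was 0.142 for Cdk4 and 0.145 for Ccna2, 0.219 for Cdk2, 0.237 for Ccnb1, 0.281 for Ccnd3, 0.292 for Cdk1 and 0.298 for Cdkn1b, compared with a median of 0.271 over all genes tested. It was 0.543 for Cdk6, 0.801 for Ccnd1 and 1.24 for Ccnd2. These last 3 and Cdkn1b were sampled by few UMIs: Ccnd2 had 1 to 13 UMIs per group of embryos, and no embryo exceeded 12.5 CPM. When the 16 groups were ranked by mean level, most neighbours did not differ beyond their spread: 2 of the 15 neighbouring steps exceeded the larger of the neighbouring SDs for Ccna2 and for Cdk2, 1 for Ccnb1, Cdk1, Cdk4 and Cdkn1b, and 0 for the other 4. The widest step of Ccna2 separated the lowest morula group from the highest ICM group (404 ± 65.0 CPM in Oct4 Ctrl morulae and 196 ± 28.7 CPM in Sox2 MWT early ICMs, mean ± SD).

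**Figure D1:**
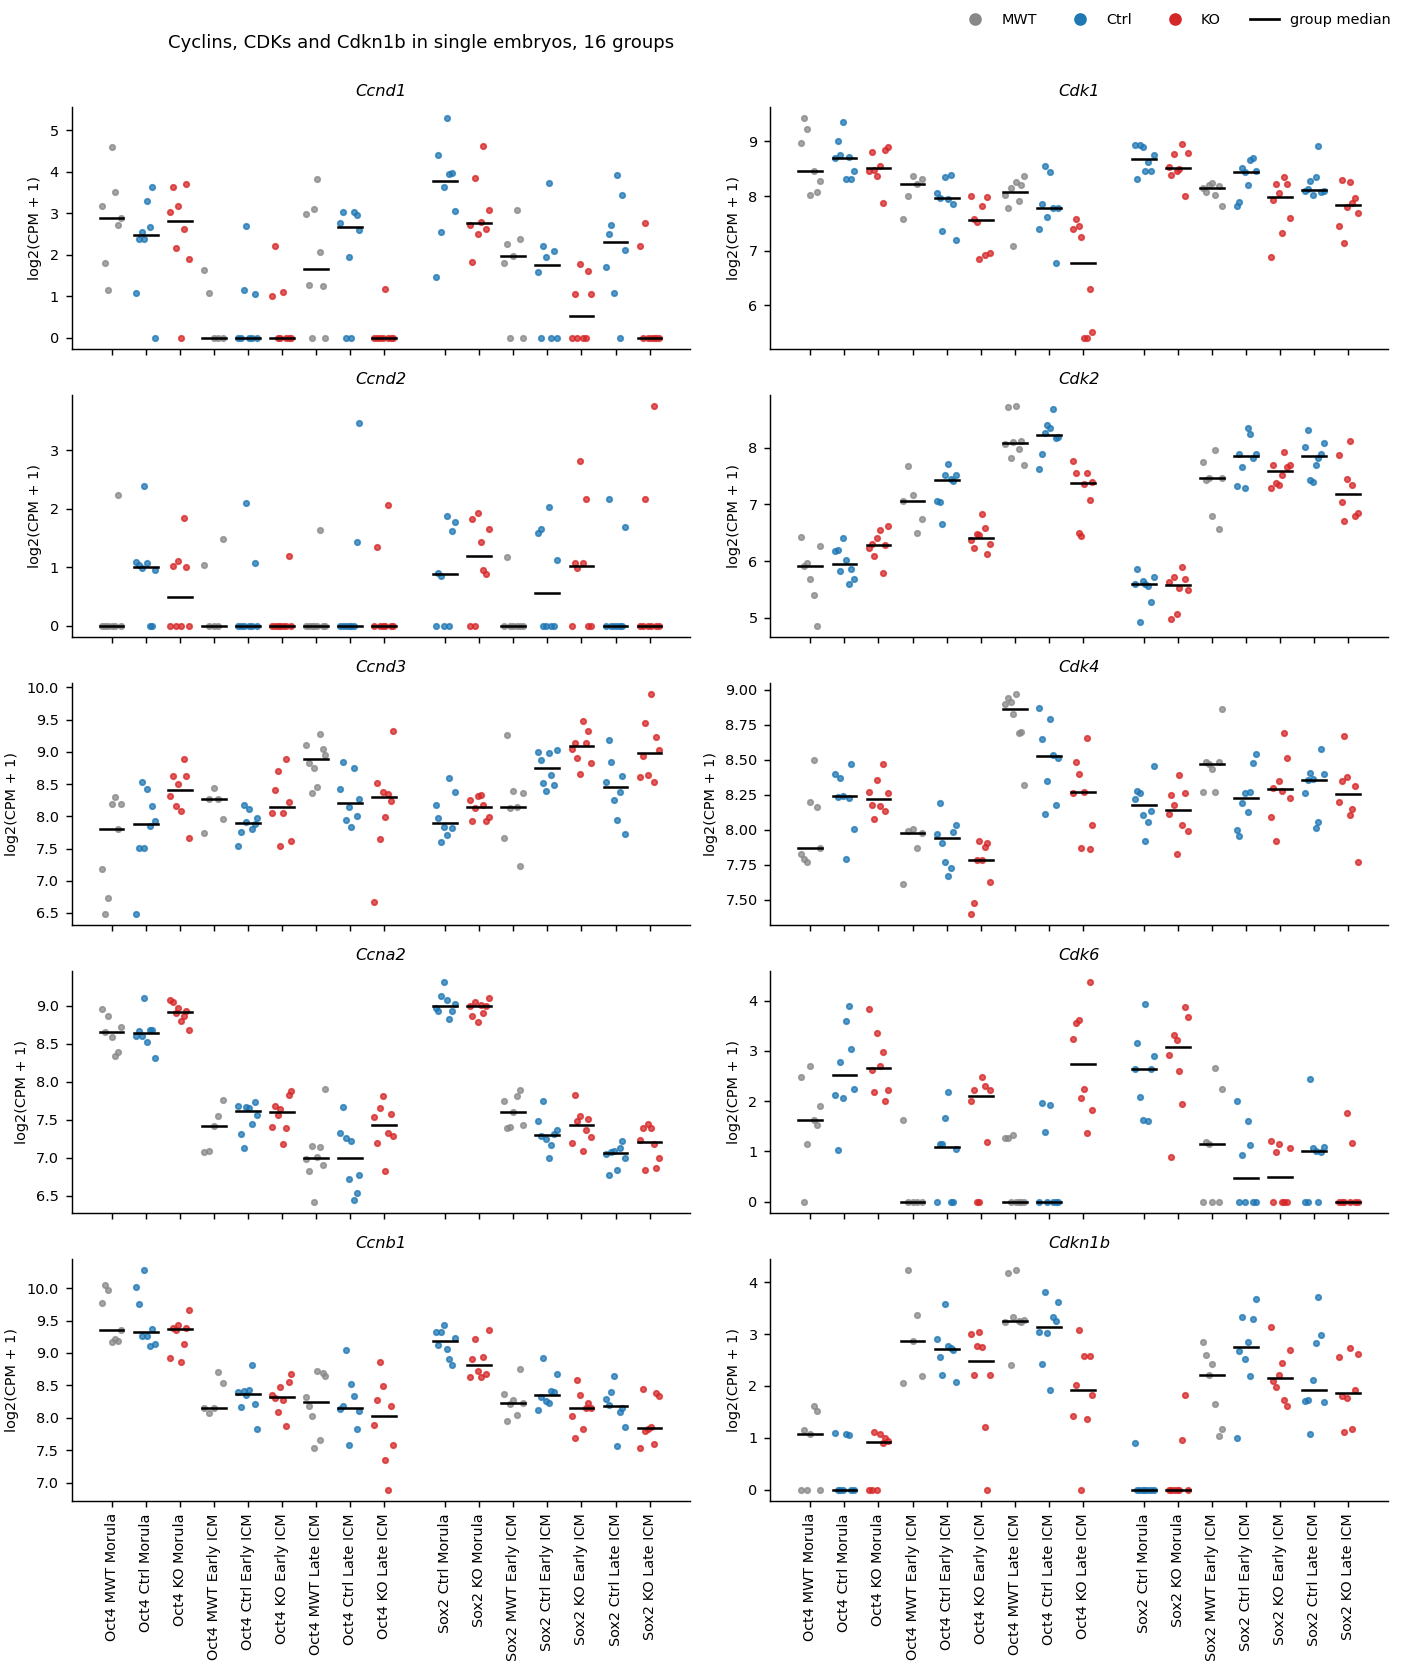
Level of each of the 10 genes in every embryo, as log2(CPM + 1), for the 16 groups ordered by line, stage and genotype. Each point is 1 embryo (grey MWT, blue Ctrl, red KO), bars are group medians and each panel has its own axis range. Ccna2 and Ccnb1 step down and Cdk2 and Cdkn1b step up between morula and early ICM in both lines, and Cdk2 and Cdk1 of the Oct4 KO late ICM lie below their Ctrl medians in all 8 embryos.

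Ctrl embryos of successive stages were compared with each other. In the first step, from morula to early ICM, culture, inhibitor and isolation changed together with the stage. Between morula and early ICM, 8 of the 10 members changed in the Oct4 line and 7 in the Sox2 line, where 48% and 51.7% of the 14053 genes tested changed (edgeR quasi-likelihood test, Benjamini-Hochberg adjusted p under 0.05). With the additional requirement of a 2-fold change, 6 and 5 members remained, against 29% and 31.9% of all genes. The cyclins of S phase and mitosis were lower in the ICM and Cdk2 and its inhibitor were higher. Cell type markers moved in the same step: 7 of 8 epiblast markers rose and 0 fell in the Oct4 line and 6 rose and 1 fell in the Sox2 line, and 3 and 4 of the 6 primitive endoderm markers tested rose. Of 10 trophectoderm markers 2 rose and 2 fell in the Oct4 line (median log2 fold change -0.01), and 0 rose and 7 fell in the Sox2 line (-1.24). The summed level of the epiblast markers was 535 to 813 CPM in Oct4 Ctrl morulae and 1531 to 2313 CPM in early ICMs, and 474 to 1078 CPM and 1537 to 3595 CPM in the Sox2 line. The trophectoderm sum was 604 to 1421 CPM and 375 to 1567 CPM in the Oct4 line, and 937 to 1546 CPM and 151 to 571 CPM in the Sox2 line. The primitive endoderm sum overlapped between the stages, at 311 to 609 CPM and 361 to 707 CPM, and at 275 to 542 CPM and 80.1 to 692 CPM. The part of these markers in the changes of the members was not tested.

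Ccna2, the cyclin of S phase and G2, was measured at 318 CPM in the lowest, 398 in the median and 546 in the highest Oct4 Ctrl morula and at 139, 195 and 212 CPM in the early ICMs. In the Sox2 line it went from 452, 511 and 637 CPM to 127, 157 and 214 CPM. The ranges did not overlap in either line. The change on the log2 scale was -1.15 ± 0.12 (SE) in the Oct4 line (adjusted p = 3.49e-14) and -1.71 ± 0.12 in the Sox2 line (adjusted p = 6.45e-23). Its overlapping neighbour Exosc9, a subunit of the RNA exosome, fell by 2.06 on the log2 scale in the Sox2 line (adjusted p = 8.36e-18) and had a value of -0.30 ± 0.18 in the Oct4 line (adjusted p = 0.17). Its part in the Ccna2 result was not tested.

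Ccnb1, the cyclin that activates Cdk1 for mitosis, was at 550, 636 and 1248 CPM (lowest, median and highest) in Oct4 Ctrl morulae and at 227, 330 and 450 CPM in early ICMs, again without overlap (-1.25 ± 0.17, adjusted p = 2.00e-09). In the Sox2 line it went from 450, 578 and 686 CPM to 277, 327 and 484 CPM, with overlapping ranges (-0.74 ± 0.17, adjusted p = 1.70e-04). Its partner kinase Cdk1 fell from 315, 415 and 651 CPM to 145, 247 and 335 CPM in the Oct4 line (-0.82 ± 0.21, adjusted p = 9.40e-04). Cdk1 of the Sox2 line did not pass (-0.34 ± 0.21, adjusted p = 0.175). Whether the 2 lines differed in these steps was not tested.

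Cdk2, the kinase of the G1/S transition and S phase, moved in the opposite direction. It was at 47.2, 60.6 and 84.2 CPM in Oct4 Ctrl morulae and 99.2, 172 and 208 CPM in early ICMs (1.33 ± 0.17, adjusted p = 2.44e-10), and at 29.2, 47.3 and 56.9 CPM and then 156, 230 and 327 CPM in the Sox2 line (2.32 ± 0.18, adjusted p = 7.22e-21). All ICMs exceeded all morulae in both lines. The neighbouring Pmel, a melanosome gene, did not move with it (-0.06 ± 0.40 and 0.08 ± 0.38).

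Cdkn1b was close to absent from Ctrl morulae, with 3 UMIs over 8 embryos in the Oct4 line and 1 over 8 in the Sox2 line, and was detected in all 16 early ICMs. The early ICMs held 41 UMIs in the Oct4 line (3.22, 5.54 and 10.96 CPM in the lowest, median and highest embryo) and 48 in the Sox2 line (1.00, 5.78 and 11.7 CPM). Relative to the morulae, the summed UMI rate was 1487% (exact Poisson 95% interval 475% to 7509%) and 5497% (941% to 221605%), intervals that cover counting error only. The adjusted p-values were 6.08e-07 and 1.24e-09 in edgeR.

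Of the G1 partners, Cdk6 fell by 2.32 ± 0.61 (adjusted p = 9.08e-04) and by 2.53 ± 0.61 (adjusted p = 2.90e-04) on the log2 scale, from 47 to 8 UMIs per 8 embryos in the Oct4 line and from 52 to 7 in the Sox2 line. Ccnd1 fell by 2.20 ± 0.77 (adjusted p = 0.0133) and by 2.15 ± 0.58 (adjusted p = 0.00106), from 38 to 7 UMIs and from 122 to 24. For Ccnd1 the Oct4 value was -1.43, with adjusted p = 0.198, when each embryo was thinned to the lowest total (adjusted p 0.0128 to 0.198 over 6 other settings, which did not include leaving out embryos). LTO1, which covers the 3′ end of Ccnd1, also fell in the Sox2 line (-1.32 ± 0.22, adjusted p = 3.09e-07), with -0.49 ± 0.22 in the Oct4 line (adjusted p = 0.0569). Its part in the Ccnd1 result was not tested. Ccnd2, at a few UMIs per group, did not pass (-0.91 ± 0.96 in the Oct4 line and -0.11 ± 0.85 in the Sox2 line).

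Ccnd3, by UMI sum the most heavily sampled of the 3 D-type cyclin genes, rose only in the Sox2 line, from 193, 238 and 385 CPM to 336, 431 and 521 CPM (0.70 ± 0.20, adjusted p = 0.0027), and had a value of -0.03 ± 0.21 in the Oct4 line; the difference between the lines was not tested. Bysl, which overlaps Ccnd3, was lower in both lines (-0.80 ± 0.16 in the Sox2 line and -0.82 ± 0.15 in the Oct4 line). Cdk4 moved little: -0.33 ± 0.11 in the Oct4 line (adjusted p = 0.00862) and 0.04 ± 0.11 in the Sox2 line (adjusted p = 0.78). Tspan31, which covers the 3′ end of Cdk4, rose in both lines (0.69 ± 0.16 and 0.71 ± 0.15). The Oct4 value of Cdk4 no longer passed when embryos were scaled by their totals (-0.23, adjusted p = 0.0666, range 0.00397 to 0.0666 over the same 6 settings). Scaling by totals shifted the median of all genes in this comparison to 0.10, from 0.00.

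Between early and late ICM, 3 of 10 members changed in the Oct4 Ctrl embryos (32.4% of all genes) and 0 of 10 in the Sox2 Ctrl embryos (7.21% of all genes), where 1 member (21% of all genes) had an unadjusted p under 0.05 and 0 passed in DESeq2. In the Oct4 line Cdk2 rose further, to 196, 298 and 409 CPM (0.91 ± 0.16, adjusted p = 4.76e-06), and Cdk4 rose from 203, 245 and 292 CPM to 276, 367 and 468 CPM (0.62 ± 0.11, adjusted p = 3.99e-06). Ccna2 fell further, to 86.5, 128 and 202 CPM (-0.48 ± 0.12, adjusted p = 0.00121). Of the markers, 4 of 8 epiblast markers rose and 2 fell in this step, as did 3 and 3 of the 6 primitive endoderm markers tested and 2 and 1 of 10 trophectoderm markers, and their part was not tested. None of the 3 members changed by 2-fold (15.6% of all genes did), and all 3 overlapped between the stages. Tspan31, which overlaps Cdk4, rose by a similar amount (0.51 ± 0.15, adjusted p = 0.00604), and its part in the Cdk4 result was not tested. Pmel had a value of 0.42 ± 0.40 (adjusted p = 0.462) and Exosc9 -0.41 ± 0.19 (adjusted p = 0.0928). Ccnd1 had a value of 1.99 ± 0.82 (adjusted p = 0.0506), with 7 UMIs in the early and 23 in the late ICMs, and passed in DESeq2 (2.19, adjusted p = 0.0349). The other 6 members of the Oct4 line did not pass: Ccnd2 1.34 ± 0.97, Ccnd3 0.43 ± 0.21, Ccnb1 -0.06 ± 0.17, Cdk1 -0.06 ± 0.22, Cdk6 -0.24 ± 0.84 and Cdkn1b 0.45 ± 0.41. In the Sox2 line the values were -0.01 ± 0.16 for Cdk2, 0.06 ± 0.11 for Cdk4, -0.33 ± 0.12 for Ccna2, -0.27 ± 0.17 for Ccnb1, -0.11 ± 0.21 for Cdk1, 0.23 ± 0.78 for Cdk6 and -0.49 ± 0.42 for Cdkn1b. The D-type cyclins Ccnd1, Ccnd2 and Ccnd3 had values of 0.73 ± 0.63, -0.52 ± 0.95 and -0.27 ± 0.20 there.

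**Figure D2:**
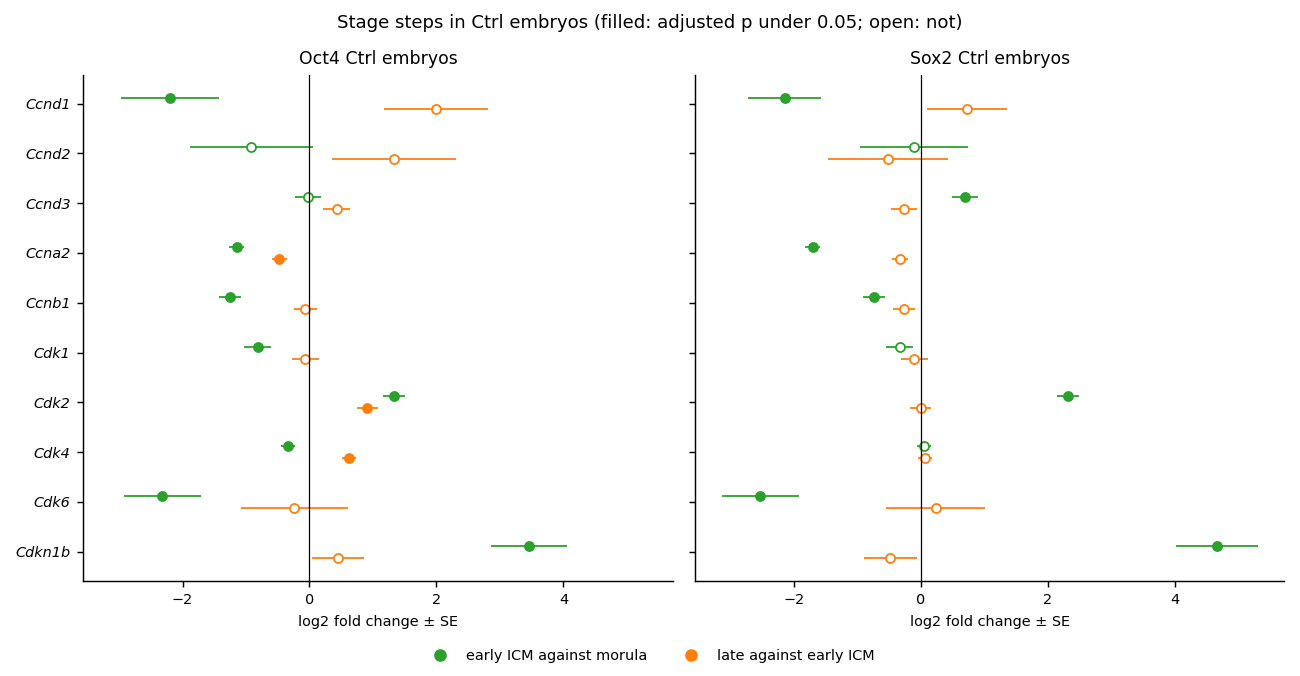
Log2 fold changes of the 10 genes between successive stages of Ctrl embryos, with horizontal bars of ± 1 SE, for the Oct4 line (left) and the Sox2 line (right), 8 embryos per group. Green is early ICM against morula, orange is late against early ICM, and filled points have an adjusted p under 0.05. Cdk2 and Cdkn1b lie to the right of 0 and Ccna2, Ccnb1, Ccnd1 and Cdk6 to the left in the first step of both lines.

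The effect of losing Oct4 or Sox2 was then read from KO against Ctrl embryos of the same line and stage. These comparisons use the same Ctrl embryos as the stage steps above, so the 2 sets of values are not independent. The 8 epiblast markers were Nanog, Pou5f1, Sox2, Fgf4, Klf2, Esrrb, Tdgf1 and Utf1. The deleted gene of each line is therefore among them, and its loss by design enters their counts, medians and sums.

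At the morula stage 0 of the 10 members passed in either line, where 1.47% of all genes passed in the Oct4 line and 0.00712% in the Sox2 line. At an unadjusted p under 0.05 there were 2 members (Ccnd3 and Ccna2) in the Oct4 line (12.1% of all genes) and 0 in the Sox2 line (4.4%), and DESeq2 gave 0 in both. Ccna2 had a log2 fold change of 0.27 ± 0.11 (adjusted p = 0.284) and Ccnd3 0.51 ± 0.21 (adjusted p = 0.239) in Oct4 KO morulae. The 8 KO morulae were above the Ctrl median for Ccna2, as were 7 of 8 for Ccnd3, with overlapping ranges. The other 8 values in the Oct4 line were 0.34 ± 0.58 for Ccnd1, -0.51 ± 0.91 for Ccnd2, -0.28 ± 0.17 for Ccnb1, -0.16 ± 0.21 for Cdk1, 0.33 ± 0.18 for Cdk2, 0.03 ± 0.11 for Cdk4, 0.03 ± 0.48 for Cdk6 and 0.58 ± 0.77 for Cdkn1b. In the Sox2 line the 10 values ran from -0.71 ± 0.51 (Ccnd1) to 1.27 ± 0.83 (Cdkn1b, 4 UMIs against 1). Between these were Ccnb1 (-0.24 ± 0.17), Cdk1 (-0.10 ± 0.21), Ccna2 (-0.05 ± 0.11), Cdk4 (-0.03 ± 0.11), Cdk2 (0.00 ± 0.18), Ccnd3 (0.11 ± 0.20), Ccnd2 (0.29 ± 0.80) and Cdk6 (0.30 ± 0.46).

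In the Oct4 KO early ICM only Cdk2 changed, 1 of 10 members, compared with 21% of all genes. Cdk2 was at 99.2, 172 and 208 CPM in the lowest, median and highest Ctrl embryo and at 69.0, 84.4 and 113 CPM in the KO embryos. Every one of the 8 KO embryos was below the Ctrl median, the ranges overlapped, and the log2 fold change was -0.90 ± 0.17 (adjusted p = 2.65e-05). The change was below 2-fold, so 0 members remained under that requirement (10.9% of all genes). Pmel, next to Cdk2, was also lower (-1.39 ± 0.47, adjusted p = 0.0233), and its part in the Cdk2 result was not tested. Markers of cell types differed between the same embryos: 6 of 8 epiblast markers were lower and 0 higher (median log2 fold change -2.15), 3 of the 6 primitive endoderm markers tested were lower and 0 higher (-1.46), and of 10 trophectoderm markers 3 were higher and 2 lower (0.46). The summed level was 1531 to 2313 CPM in Ctrl and 981 to 1614 CPM in KO embryos for the epiblast markers, 361 to 707 CPM and 285 to 561 CPM for the primitive endoderm markers, and 375 to 1567 CPM and 800 to 2091 CPM for the trophectoderm markers. Their part in the Cdk2 result was not tested.

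The other members of the Oct4 KO early ICM did not pass. Cdk1 had a value of -0.42 ± 0.22 (adjusted p = 0.171) and Cdk4 -0.18 ± 0.11 (adjusted p = 0.261), with all 8 KO embryos below the Ctrl median for Cdk4. The cyclins of S phase and mitosis were near 0, at 0.05 ± 0.12 for Ccna2 and -0.01 ± 0.17 for Ccnb1. Ccnd3 had a value of 0.35 ± 0.21, Cdk6 1.04 ± 0.69 (17 UMIs against 8), and Cdkn1b -0.38 ± 0.43. Ccnd1 (-0.38 ± 1.02) and Ccnd2 (-1.29 ± 1.22) had at most 7 UMIs in either group.

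In the Oct4 KO late ICM 6 of the 10 members changed, compared with 31.7% of all genes. Cdk1, Cdk2, Ccnd1 and Cdkn1b were lower, 4 of 10 against 15.7% of all genes, and Ccna2 and Cdk6 were higher, 2 of 10 against 16%. Under the 2-fold requirement 4 remained (Ccnd1, Cdk1, Cdk6 and Cdkn1b, against 18.1% of all genes). The median log2 fold change of the 10 was -0.59, against -0.01 over all genes.

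Among the kinases, Cdk2 was again lower: 196, 298 and 409 CPM in Ctrl and 85.7, 165 and 217 CPM in KO embryos (lowest, median and highest; -0.94 ± 0.17, adjusted p = 2.92e-06). Every KO embryo was below the median of Ctrl and the ranges overlapped slightly. The adjusted p stayed between 1.98e-07 and 5.99e-04 over 23 alternative settings. Pmel was lower here too (-1.53 ± 0.47, adjusted p = 0.00761).

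Cdk1, the mitotic kinase, was at 109, 220 and 373 CPM in Ctrl and at 41.3, 114 and 190 CPM in KO embryos (-1.06 ± 0.23, adjusted p = 9.94e-05), with each of the 8 KO embryos below the Ctrl median. The KO embryos fell into separate ranges by the first number of their replicate label, whose meaning is not given in the labels. The 4 labelled 1 were at 151 to 190 CPM and the 4 labelled 2 at 41.3 to 77.9 CPM, while the corresponding Ctrl embryos were at 167 to 373 CPM (5 embryos) and 109 to 220 CPM (3 embryos). With this number as a block the value was -1.10 (adjusted p = 5.94e-04). Its cyclin partner Ccnb1 had a value of -0.20 ± 0.18 (adjusted p = 0.41).

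Cdk6, a G1 partner of the D-type cyclins, was the member with the highest positive value. Ctrl late ICMs held 5 UMIs in 3 of 8 embryos (0, 0 and 2.89 CPM), and KO late ICMs held 45 UMIs, with at least 1 in each of the 8 (1.59, 6.09 and 19.8 CPM). The 8 KO embryos were above the Ctrl median of 0 and the ranges overlapped. The log2 fold change was 2.90 ± 0.67 (adjusted p = 3.09e-04), and the summed UMI rate was 845% of that of Ctrl (exact Poisson 95% interval 336% to 2727%). Embryo 2-6 alone supplied 16 of the 45 UMIs, and without it the adjusted p was 0.00317, the highest over the alternatives (lowest 1.79e-04). Cdk4, the other such kinase, had a value of -0.25 ± 0.11 (adjusted p = 0.0721), with 7 of 8 KO embryos below the Ctrl median, and Tspan31 0.09 ± 0.15 (adjusted p = 0.701). Cdk4 passed when embryos were scaled by their totals (-0.35, adjusted p = 0.00686) and when any one of Ctrl embryos 1-4 and 2-4 or KO embryos 1-5, 1-7 and 2-5 was left out.

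Ccnd1 was detected in 6 of 8 Ctrl late ICMs (23 UMIs; 0, 5.42 and 7.23 CPM) and in 1 of 8 KO late ICMs, by 1 UMI. That is 4.08% of the Ctrl rate (exact Poisson 95% interval 0.0991% to 25.1%), and the difference passed in edgeR (log2 fold change -3.81 ± 1.10, adjusted p = 0.00427), although the fitted fold of a gene with 1 UMI depends on the prior count. LTO1 did not fall with it (0.67 ± 0.28, adjusted p = 0.0566). Of the other D-type cyclins, Ccnd3 had a value of 0.00 ± 0.21 and Ccnd2 -1.38 ± 1.04, with 3 UMIs against 9.

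Ccna2 was slightly higher in KO late ICMs: 86.5, 128 and 202 CPM in Ctrl and 113, 172 and 224 CPM in KO embryos, 7 of 8 of them above the Ctrl median (0.39 ± 0.12, adjusted p = 0.00841). It no longer passed without KO embryo 1-8 (adjusted p = 0.0503), nor when the fit held only the 2 groups compared (0.114) or the counts were thinned (0.0633). Over all alternatives its adjusted p ran from 0.00111 to 0.114. The overlapping Exosc9 had a value of -0.16 ± 0.21 (adjusted p = 0.616). Cdkn1b was lower, with 42 UMIs in Ctrl (2.81, 7.88 and 12.97 CPM) and 20 in KO (0, 2.81 and 7.47 CPM), all 8 KO embryos below the Ctrl median (-1.15 ± 0.45, adjusted p = 0.0416). That call lay near the threshold. It was lost with the first number of the replicate label as a block (-1.18, adjusted p = 0.0604), with no filter on low counts (0.108), when the fit held only the 2 groups compared (0.0716), and without any one of Ctrl embryos 1-4, 2-1, 2-4 and 2-9 or of KO embryos 1-2, 1-5, 1-8, 2-5 and 2-7 (adjusted p 0.0153 to 0.108 over 23 alternatives).

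Markers of other cell types differed between the same late ICMs. Of 10 trophectoderm markers, 8 were higher and 0 lower (median log2 fold change 1.97). All 8 epiblast markers, the deleted Pou5f1 included, were lower (median -3.94). Of the 6 primitive endoderm markers tested 4 were lower and 1 higher (median -3.03). The summed level of the trophectoderm markers, all detected, was 275 to 1186 CPM in Ctrl and 1823 to 4127 CPM in KO embryos, without overlap, and Cdx2, a defining trophectoderm factor, was at 6.30 to 13.6 CPM and 17.5 to 85.9 CPM. The summed level of 8 epiblast markers was 2421 to 3684 CPM in Ctrl and 384 to 1050 CPM in KO embryos. The primitive endoderm sum overlapped, at 146 to 718 CPM and 244 to 567 CPM, although most of its markers were lower, and its factor Sox17 was at 0 in 7 of 8 KO embryos. The part of these markers in the changes of Cdk1, Cdk2, Cdk6, Ccnd1, Ccna2 and Cdkn1b was not tested.

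In the Sox2 KO early ICM 0 of the 10 members passed, where 7.04% of all genes did. Cdk1 and Ccnd1, 2 of 10, had an unadjusted p under 0.05 (19.6% of all genes), and DESeq2 gave 0. Cdk1 was at 224, 348 and 414 CPM in Ctrl and 117, 254 and 325 CPM in KO embryos (-0.49 ± 0.21, adjusted p = 0.173), with all 8 KO embryos below the Ctrl median. Ccnd1 had 24 UMIs in Ctrl and 6 in KO embryos (-1.75 ± 0.83, adjusted p = 0.22). LTO1, which overlaps Ccnd1, had a value of -0.01 ± 0.24. Cdk2 had a value of -0.29 ± 0.16 (adjusted p = 0.315). The other 7 values were 0.50 ± 0.85 for Ccnd2, 0.31 ± 0.20 for Ccnd3, 0.07 ± 0.12 for Ccna2, -0.31 ± 0.17 for Ccnb1, 0.05 ± 0.11 for Cdk4, -0.60 ± 0.86 for Cdk6 and -0.67 ± 0.42 for Cdkn1b. In these embryos 6 of 10 trophectoderm markers were higher and 1 lower, 5 of 8 epiblast markers were lower and 0 higher, and 0 of 6 primitive endoderm markers passed.

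In the Sox2 KO late ICM 2 of 10 members changed, compared with 13.8% of all genes, and neither by 2-fold (6.95% of all genes). Ccnd3 was at 210, 351 and 579 CPM in Ctrl and at 371, 505 and 957 CPM in KO embryos, all 8 above the Ctrl median (0.62 ± 0.20, adjusted p = 0.0291), while the overlapping Bysl was lower (-0.51 ± 0.16, adjusted p = 0.0203). Cdk2 was at 168, 231 and 317 CPM in Ctrl and at 103, 146 and 277 CPM in KO embryos, 6 of 8 below the Ctrl median (-0.50 ± 0.16, adjusted p = 0.0275), and Pmel was lower beside it (-1.39 ± 0.41, adjusted p = 0.0137). Ccnd1 had 39 UMIs in 7 of 8 Ctrl embryos and 8 UMIs in 2 of 8 KO embryos (-1.96 ± 0.76, adjusted p = 0.0699), with LTO1 at 0.23 ± 0.24. Cdk1 had a value of -0.42 ± 0.22 (adjusted p = 0.202), Cdk6 -1.02 ± 0.90 (3 UMIs against 8) and Cdkn1b -0.48 ± 0.46. The values of the other 4 were 1.39 ± 0.89 for Ccnd2, 0.16 ± 0.12 for Ccna2, -0.17 ± 0.18 for Ccnb1 and -0.05 ± 0.11 for Cdk4.

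Both calls in the Sox2 KO late ICM lay near the threshold. The call of Ccnd3 was lost without any one of Ctrl embryos 1-10, 2-1 and 2-6 or KO embryos 1-5 and 2-3, with scaling by totals (adjusted p = 0.0807) and with thinned counts (0.0645), over a range of 0.00184 to 0.137 in 24 alternatives. That of Cdk2 was lost with the first number of the replicate label as a block (-0.50, adjusted p = 0.0799), when the fit held only the 2 groups compared (0.0868), and without any one of Ctrl embryos 1-4 and 2-6 or KO embryos 1-3, 1-5, 2-8 and 2-10 (0.0038 to 0.436 in all, the highest with the replicate number as a block). Ccnd1 passed when Ctrl embryo 2-3 or KO embryo 1-1 or 1-5 was left out (adjusted p = 0.0447, 0.046 and 0.0152). The trophectoderm sum was 265 to 3133 CPM in Ctrl and 706 to 2048 CPM in KO embryos, and the epiblast sum 2418 to 3949 CPM and 1297 to 2068 CPM. Of the trophectoderm markers 3 were higher and 2 lower, of the epiblast markers 5 of 8 were lower and 0 higher, and of the 6 primitive endoderm markers tested 1 was higher and 0 lower. Their part in the values of Ccnd3, Cdk2 and Ccnd1 was not tested.

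**Figure D3:**
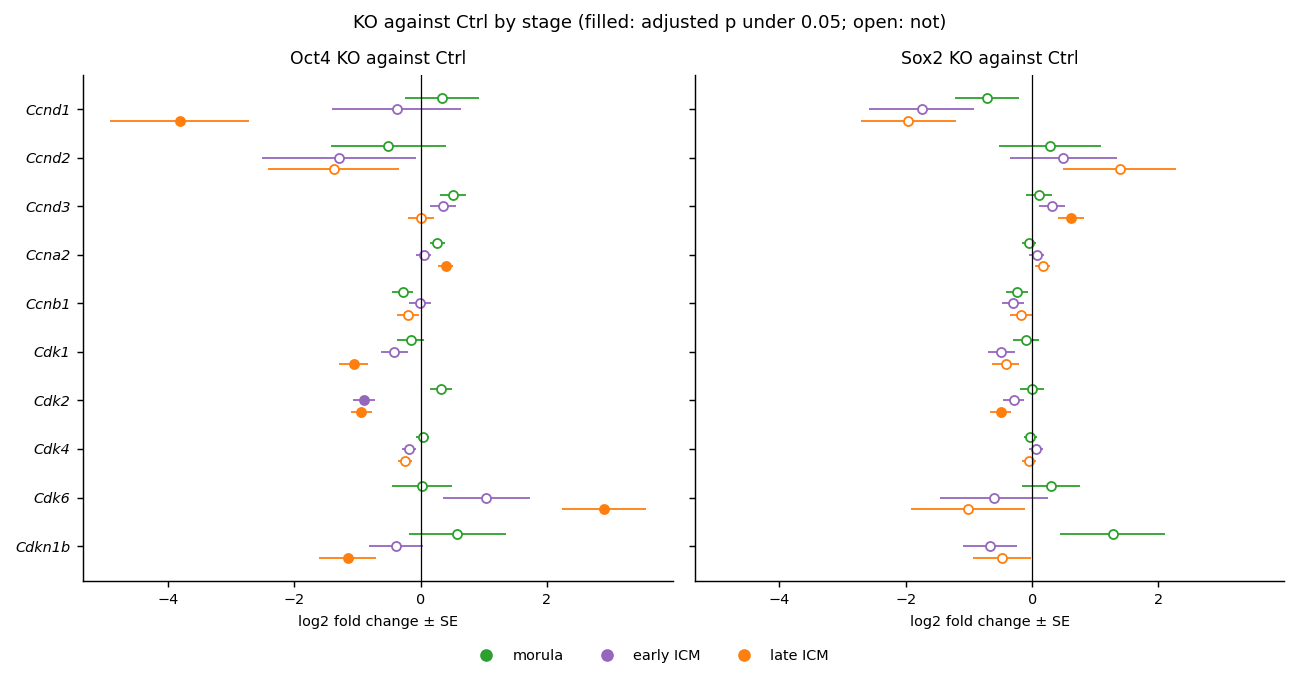
Log2 fold changes of the 10 genes in KO against Ctrl embryos, with horizontal bars of ± 1 SE, for the Oct4 line (left) and the Sox2 line (right), 8 embryos per group. Colours give the stage and filled points have an adjusted p under 0.05. In the Oct4 line Cdk2 is filled at both ICM stages and 6 genes are filled in the late ICM; in the Sox2 line only Ccnd3 and Cdk2 of the late ICM are filled.

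Whether the loss of Oct4 and the loss of Sox2 acted differently on the members was tested directly. In the late ICM 1 of 10 differed, Cdk6, where 8.67% of all genes did: the effect of Oct4 loss exceeded that of Sox2 loss by 3.92 ± 1.18 on the log2 scale (adjusted p = 0.0221, 0.0133 to 0.0517 over 6 other settings, the highest with thinned counts; embryos were not left out in turn). Cdk6 went from 5 to 45 UMIs with Oct4 loss and from 8 to 3 with Sox2 loss. The differences for the other members called in the Oct4 line did not pass: -1.86 ± 1.38 for Ccnd1, -0.64 ± 0.31 for Cdk1, -0.44 ± 0.23 for Cdk2, 0.23 ± 0.17 for Ccna2 and -0.68 ± 0.66 for Cdkn1b. In the early ICM 0 of 10 differed (8.12% of all genes; at an unadjusted p under 0.05, 1 member and 21.6% of all genes; 0 in DESeq2), and the difference for Cdk2 was -0.60 ± 0.23 (adjusted p = 0.0962).

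Between early and late ICM the KO effect itself was not shown to differ for any member. In the Oct4 line 0 of 10 passed (4.46% of all genes), 3 of 10 had an unadjusted p under 0.05 (17.8% of all genes) and 0 passed in DESeq2. Those 3 were Ccnd1 (-3.44 ± 1.67), Cdk1 (-0.64 ± 0.31) and Ccna2 (0.34 ± 0.17). Cdk6 had a value of 1.86 ± 1.06 and Cdk2 -0.04 ± 0.24. In the Sox2 line 0 of 10 passed (0.0427% of all genes), with 0 at an unadjusted p under 0.05 (10.6% of all genes) and 0 in DESeq2. A member called in the late and not in the early ICM, such as Cdk1 or Cdk6 in the Oct4 line, was therefore not shown to respond at one stage only.

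MWT embryos were compared with Ctrl embryos, which lacked the maternal supply and the mother's intact copy of the gene (values are MWT minus Ctrl on the log2 scale). Maternal supply and the embryo's own gene dose cannot be told apart in this comparison. In the Oct4 line 0 of 10 members passed in the morula, the early ICM and the late ICM, where 0.079%, 0.639% and 1.58% of 13923 genes did, with 1, 0 and 2 members at an unadjusted p under 0.05 (7.22%, 9.52% and 13.9% of genes) and 0 in DESeq2. The Oct4 MWT ICMs were taken at the stage their titles give, since their source names give an earlier one. The members at an unadjusted p under 0.05 were Cdk6 in the morula (-1.20 ± 0.56) and Ccnd3 (0.56 ± 0.22) and Cdk4 (0.27 ± 0.11) in the late ICM. In the Sox2 line, which had MWT embryos only as early ICMs, 0 of 10 passed, where 6.33% of genes did, with 4 members at an unadjusted p under 0.05 (20.5% of genes) and 0 in DESeq2. Those 4 were Ccnd3 (-0.47 ± 0.23), Ccna2 (0.29 ± 0.13), Cdk2 (-0.44 ± 0.18) and Cdk4 (0.24 ± 0.11). In these Sox2 embryos 3 of 10 trophectoderm markers were higher in MWT and 0 lower, 1 of 8 epiblast markers was higher and 3 lower, and 1 of the 6 primitive endoderm markers tested was higher and 0 lower, with a primitive endoderm sum of 885 to 1273 CPM in MWT and 80.1 to 692 CPM in Ctrl embryos. In the Oct4 line the markers that passed were 2 primitive endoderm markers, lower in MWT late ICMs. The part of these markers was not tested. For Cdk2, the Oct4 MWT and Ctrl embryos covered similar ranges, 89.6 to 204 CPM and 99.2 to 208 CPM in the early ICM and 206 to 428 CPM and 196 to 409 CPM in the late ICM, with differences of -0.25 ± 0.21 and -0.02 ± 0.18.

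The 10 members were set beside 76 other genes of the same machinery in 5 lists (other cyclins, other CDKs, other CDK inhibitors, G1/S regulators and G2/M regulators). Of these, 73 could be tested, the exceptions being Ccna1, Ccnb3 and Cdkn2a. In the Oct4 KO early ICM 10 were higher and 9 lower (19 of 73, beside 21% of all genes), and in the late ICM 11 were higher and 11 lower (22 of 73, beside 31.7%). In the Sox2 KO early ICM 6 were higher and 1 lower (7 of 73, beside 7.04%), and in the late ICM 6 were higher and 5 lower (11 of 73, beside 13.8%). These shares are near those of all genes and are no result about the lists. In morulae 1 of 73 was lower with Oct4 loss (Cdk19, a Mediator kinase; 1.47% of all genes passed) and 0 changed with Sox2 loss (0.00712% of all genes). Of the 14 other CDKs, 2 were higher and 2 lower in the Oct4 KO early ICM (median -0.05), and 3 were higher and 4 lower in the late ICM (median -0.21).

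Of the listed genes that changed and averaged 20 CPM or more in the higher group, those with the lowest values in the Oct4 KO early ICM were Fbxo5 (Emi1), an inhibitor of the anaphase-promoting complex (-1.43 ± 0.22, 44.1 ± 14.9 CPM against 120 ± 17.3, mean ± SD, n = 8 each), Tfdp2, an E2F partner (-0.82 ± 0.22), and Skp2, the F-box protein that directs Cdkn1b to degradation (-0.70 ± 0.24). Those with the highest were Cdk8 (0.87 ± 0.15), a Mediator kinase, E2f6, a repressive E2F (0.73 ± 0.21), and Cdc25c, a phosphatase that activates Cdk1 (0.73 ± 0.18). In the late ICM the lowest of them were E2f5 (-1.72 ± 0.35), Skp2 (-1.50 ± 0.26) and Ccnt2, a cyclin of transcription elongation (-0.98 ± 0.22). The highest were Cdc25b, another such phosphatase (4.05 ± 0.55; 20.7 ± 11.04 CPM against 1.13 ± 1.12), Cdk14 (2.24 ± 0.46) and the p53 target Ccng1 (1.49 ± 0.31; 439 ± 152 CPM against 158 ± 43.7). Skp2 and Cdkn1b were both lower in the Oct4 KO late ICM.

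Of the 5 other CDK inhibitors tested, 1 was higher in the Oct4 KO early ICM (Cdkn2c; 21% of all genes passed) and 2 in the late ICM (Cdkn2c, 1.96, and Cdkn1a, 1.33; 31.7% of all genes passed), where Cdkn1b was lower. In the Sox2 KO early ICM 2 were higher (Cdkn2b and Cdkn2c; 7.04% of all genes passed) and in the late ICM 1 (Cdkn2b; 13.8%). With 5 genes these counts are descriptions, and the inhibitors, like Cdk19 above, were named after their values were seen. By the rule of 20 CPM, Cdc25a of the Sox2 KO ICMs, which activates Cdk2, was higher at both stages (0.69 ± 0.18 and 0.83 ± 0.18) and Cdk11b was lower in the early ICM (-0.56 ± 0.14). In the late ICM Ccnc, the cyclin of Cdk8 (-0.97 ± 0.16), Ccne1, the cyclin of Cdk2 (-0.88 ± 0.32), and E2f4 (-0.71 ± 0.16) were the lowest, and Cdk20 (0.86 ± 0.31) and Ccni (0.65 ± 0.20) were higher. All these genes had an adjusted p under 0.05 in edgeR.

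**Figure D4:**
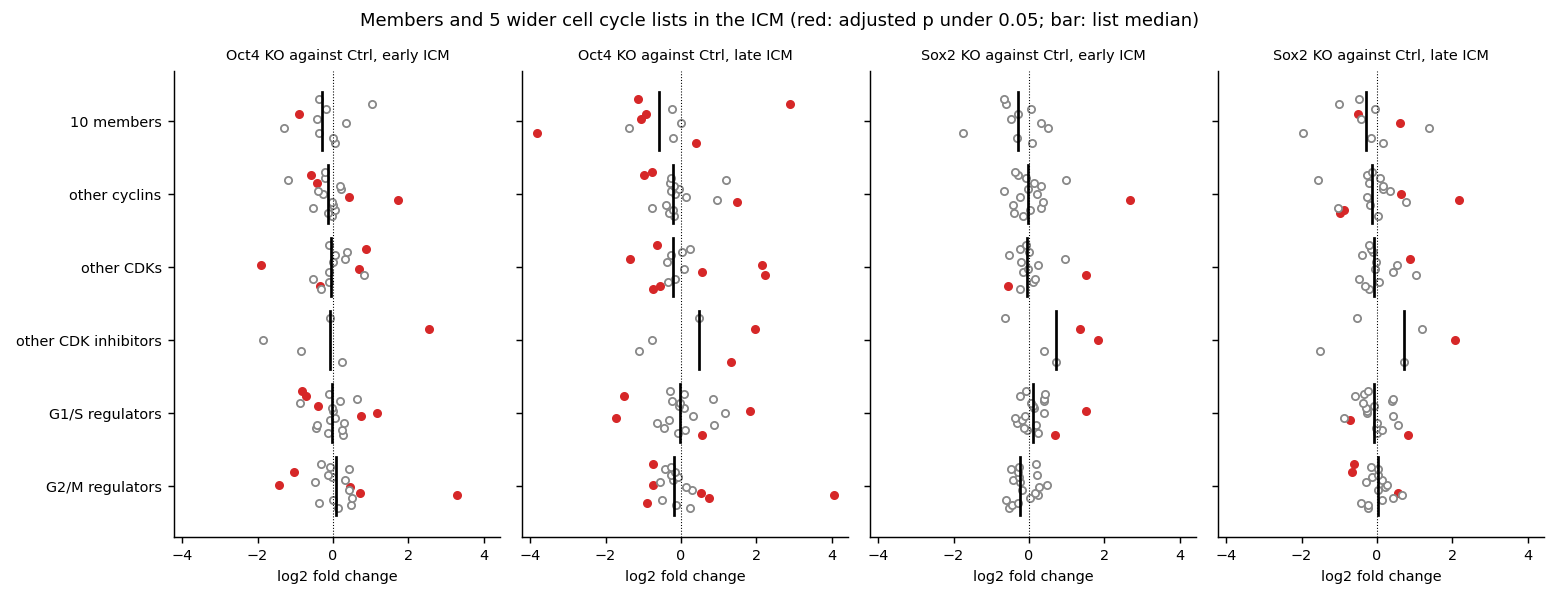
Log2 fold changes of the 10 genes and of 5 wider cell cycle lists in KO against Ctrl ICMs, 1 panel for each line and stage. Each point is 1 tested gene (red with an adjusted p under 0.05), and vertical bars are list medians. The lists hold genes on both sides of 0 in every panel.

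Between morula and early ICM of Ctrl embryos, 21 of the 73 listed genes rose and 24 fell in the Oct4 line, and 15 rose and 26 fell in the Sox2 line (45 and 41 of 73, beside 48% and 51.7% of all genes). Ccne1, named here after its values were seen, fell while its kinase Cdk2 rose (-3.48 and -3.75, from a mean of 278 to 24.9 CPM and from 268 to 19.9 CPM). Between early and late ICM 10 rose and 13 fell in the Oct4 line, and 1 rose and 6 fell in the Sox2 line (23 and 7 of 73, beside 32.4% and 7.21% of all genes). In MWT against Ctrl embryos 8 listed genes passed in the Sox2 early ICM (3 higher and 5 lower, beside 6.33% of all genes) and 0 in the 3 Oct4 comparisons.

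Across the 16 group means, Ccna2 and Ccnb1 rose and fell together (Pearson's r = 0.89), as did Cdk2 and Cdkn1b (r = 0.89), and the pairs ran opposite to each other (Ccna2 and Cdk2, r = -0.93). These groups share stages and processing, and the correlations are descriptions. Of 7546 candidate genes whose mean reached 20 CPM in some group, the closest in pattern were Gcsh, Uhmk1 and Tent4b for Ccna2 (r = 0.99, 0.99 and 0.98), Ubxn1 for Ccnb1 (0.98), Hirip3 for Cdk1 (0.96), Mov10 and H2afz for Cdk2 (0.98 and 0.97) and Helz for Cdkn1b (0.96). For the other members they were Mrpl58 for Ccnd1 (0.93), Lratd2 for Ccnd2 (0.77), Lmo4 for Ccnd3 (0.87), Gpaa1 for Cdk4 (0.92) and Rbms1 for Cdk6 (0.95).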

How the data were processed

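RNA from 123 single morulae and ICMs was made into 3′-end enriched libraries with unique molecular identifiers. Per the study's methods and the submitters' processing notes, the authors handled UMIs with UMI-tools, trimmed with cutadapt, mapped to mm10 with TopHat2, counted with featureCounts and estimated unique transcript counts with TRUmiCount. The deposited values are these raw UMI counts per gene, not normalized.

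Genes detected in a share of at least 0.5 of the embryos of 1 or more stages were kept. Counts were fitted in edgeR 4.0.16 (R 4.3.3; quasi-likelihood test, two-sided, TMM scaling, group means without covariates), with all 96 Ctrl and KO embryos in 1 fit (14053 genes) and all 123 embryos in another for MWT (13923 genes). Benjamini-Hochberg adjusted p-values run over all genes, the threshold is 0.05, and the SE is the absolute log2 fold change divided by the square root of F. CPM and UMI rates are relative to the embryo's UMI total over the 13923 genes, multiplied by its TMM factor. The depth was 525755 to 1344035 UMIs per embryo, and Poisson intervals are exact and cover counting error only. All 10 members are named in each comparison of KO with Ctrl and of stages. Of the wider lists, up to 3 genes with the lowest and the highest values among passing genes whose higher group averaged 20 CPM or more are named. Listed genes behind counts of 5 or fewer were also named, after their values were seen. Of the 3 genes with the highest Pearson correlation with a member over the 16 group means, 1 to 3 are named. The members, lists and tests were chosen with earlier results of these data known. Nothing in the labels says which embryos shared a litter, so p-values measure the spread between embryos.

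Alternatives were scaling by totals, DESeq2 size factors, DESeq2 1.42.0, no filter, only the groups compared, counts thinned to the lowest total, a 2-fold minimum, blocks (KO against Ctrl), and leaving out single embryos (69 fits: both ICM stages of KO against Ctrl in each line, and the MWT embryos of Oct4 early ICMs). On simulated data for the Oct4 KO early ICM with 14053 genes, 74% of 100 2-fold and 98% of 100 4-fold changes passed. The share passing among genes at few UMIs, such as Ccnd1, Ccnd2, Cdk6 and Cdkn1b, was not tested separately. No replicate pair of a group agreed within sampling noise (416 pairs, lowest chi-square per gene 2.41).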

Additional observations from a re-analysis of the deposited data

Results flagged for a closer look

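The effect of KO on Cdk6 in the late ICM differed between the lines, by 3.92 on the log2 scale (Oct4 minus Sox2; edgeR interaction term).

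Of 160 combinations of member and group examined, 24 had 1 embryo whose gap to the others exceeded Dixon's 95% critical value, where chance flags about 1 in 20. Most were genes at a few UMIs, for which 1 embryo with a UMI among embryos at 0 is enough. For Ccnd1 these were Oct4 MWT morula 6 (23.1 CPM), Oct4 Ctrl early ICM 4 (5.48 CPM), Oct4 KO early ICM 2 (3.64 CPM), Sox2 Ctrl early ICM 9 (12.3 CPM) and Oct4 KO late ICM 2-2 (1.25 CPM). For Ccnd2 they were Oct4 MWT morula 8 (3.72 CPM), Oct4 Ctrl morula 11 (4.21 CPM), Oct4 KO morula 7 (2.58 CPM), Oct4 Ctrl early ICM 4 (3.29 CPM), Oct4 KO early ICM 17 (1.28 CPM), Sox2 MWT early ICM 2 (1.27 CPM), Oct4 MWT late ICM 15 (2.12 CPM), Oct4 Ctrl late ICM 2-9 (10.1 CPM) and Sox2 KO late ICM 2-6 (12.5 CPM).

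For Cdk6 they were Oct4 MWT early ICM 1 (2.10 CPM) and Sox2 Ctrl late ICM 1-5 (4.45 CPM), and for Cdkn1b Sox2 Ctrl morula 1 (0.876 CPM), Sox2 KO morula 19 (2.56 CPM) and Oct4 Ctrl early ICM 4 (10.96 CPM). Oct4 Ctrl early ICM 4 was thus the highest of its group for Ccnd1, Ccnd2 and Cdkn1b. Among the members with more UMIs, Ccnd3 was far from the others in Sox2 MWT early ICM 2 (610 CPM), Ccna2 in Oct4 Ctrl morula 11 (546 CPM) and Oct4 MWT late ICM 20 (239 CPM), Cdk1 in Sox2 Ctrl late ICM 2-3 (484 CPM) and Cdk4 in Sox2 MWT early ICM 15 (464 CPM).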

How the results depend on the processing

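Leaving out the 2-fold minimum, 289 of 323 values of the 28 member results that passed the test kept their direction and passed under other settings, 34 kept the direction without passing and 0 reversed. In the Oct4 KO late ICM, Ccnd1 (-4.98 to -3.47), Cdk1 (-1.23 to -0.94), Cdk2 (-1.05 to -0.87) and Cdk6 (2.50 to 3.33) passed in each of 23 alternatives without a fold minimum, as did Cdk2 in the Oct4 KO early ICM (-0.98 to -0.76). With the 2-fold minimum Cdk2 passed at neither stage. Depth limits Ccnd1, Ccnd2, Cdk6 and Cdkn1b, which had few UMIs per embryo. The cause of the shifts below was not tested.

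Members passing in the Sox2 KO late ICM numbered 1 with scaling by totals and with thinned counts (Cdk2) and with only the groups compared and with the number set as a block (Ccnd3), and 0 with a 2-fold minimum. Over all genes 1910 passed with the number set as a block and 977 with the 2-fold minimum, against 1935 in the main fit. The 2-fold minimum also left 0 in the Oct4 KO early ICM and 0 in the Oct4 Ctrl step from early to late ICM (1529 and 2187 over all genes). For the difference between the lines, only the groups compared gave 1 in the early ICM (Cdk2) and thinned counts gave 0 in the late ICM. Leaving out single embryos gave 4 to 7 members in the Oct4 KO late ICM, 0 to 3 in the Sox2 KO late ICM, 1 to 1 in the Oct4 KO early ICM and 0 to 0 in the Sox2 KO early ICM and in Oct4 MWT early ICMs. In the main fits 31.7%, 13.8%, 21%, 7.04% and 0.639% of all genes passed, in that order.

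Same-numbered KO and Ctrl embryos had correlations of -0.09 to 0.27. No correlation of differently numbered embryos was calculated for reference, so these values cannot show whether the numbers pair embryos. With the replicate block, 3 members passed in the Oct4 KO morula (Ccnd3, Ccnb1 and Cdk1), 2 in the Oct4 KO early ICM (Cdk2 and Cdk4) and 2 in the Sox2 KO late ICM (Ccnd3 and Cdk1, not Cdk2), and over all genes 497, 1077 and 979 passed. Such a block rests on the few embryos whose number occurs in both genotypes. These were numbers 1, 4 and 7 in Oct4 morulae, 1 and 2 in Oct4 early ICMs, and 1-1, 1-5, 2-3 and 2-6 in Sox2 late ICMs. No paired analysis was possible for the Oct4 KO late ICM and the Sox2 KO morula because they share fewer than 2 numbers with Ctrl. The block reversed Cdk2 (-0.0402) and Cdk4 (-0.0600) in Oct4 KO morulae, Ccnd1 (4.07) and Ccnb1 (0.0334) in the Oct4 KO early ICM and Cdk4 in the Sox2 KO late ICM (0.00842).

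Other reversals were of values near 0 or of few UMIs, none of which passed. With DESeq2 and with its size factors in edgeR, in that order, they were Ccnb1 in the Oct4 KO early ICM (0.00631 and 0.00635), Ccnd3 in the Oct4 KO late ICM (-0.00680 and -0.00564), Cdk2 from early to late Sox2 Ctrl ICM (0.0247 and 0.0247), Ccna2 in Oct4 MWT morulae (-0.000910 and -0.000459) and Ccnb1 in Oct4 MWT early ICMs (0.00974 and 0.00976). With scaling by totals they were Cdk4 (-0.0216) and Cdk6 (-0.0376) in Oct4 KO morulae, Ccna2 in the Oct4 KO early ICM (-0.0246), Ccnd3 in the Oct4 KO late ICM (-0.0844), Cdk4 in the Sox2 KO early ICM (-0.0173), Ccnd3 from Oct4 Ctrl morula to early ICM (0.0681) and Cdk2 from early to late Sox2 Ctrl ICM (0.0242). In Oct4 MWT embryos they were Ccna2 in morulae (-0.0243), Ccnb1 (0.0211) and Cdk4 (0.0114) in early ICMs and Ccnd1 (0.0142) and Cdk2 (0.0520) in late ICMs.

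With thinned counts they were Ccnd2 (0.0155), Cdk4 (-0.0160) and Cdk6 (-0.0652) in Oct4 KO morulae, Ccnb1 in the Oct4 KO early ICM (0.0486), Ccnd3 in the Oct4 KO late ICM (-0.0264), Cdk6 in Sox2 KO morulae (-0.199), Ccnd2 (0.446) and Cdk4 (-0.0232) from Sox2 Ctrl morula to early ICM and Cdk2 from early to late Sox2 Ctrl ICM (0.0192). Thinning also reversed Ccnd2 (0.163) and Cdk1 (0.0678) in Oct4 MWT morulae, Ccnd1 in Sox2 MWT early ICMs (0.430) and the differences of KO effects for Ccna2 between lines in the early ICM (0.0266), Ccnd2 between Oct4 ICM stages (0.253) and Cdkn1b between Sox2 ICM stages (-0.28). The number set as a block reversed Ccnd3 in the Oct4 KO late ICM (-0.0673). No filter reversed Cdk1 in Oct4 MWT morulae (0.00354) and Ccnb1 in Oct4 MWT early (0.00653) and late ICMs (-0.00197). Only the groups compared reversed Cdk2 from early to late Sox2 Ctrl ICM (0.00500) and Ccna2 in Oct4 MWT morulae (-0.00200).

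Leaving out single embryos reversed, in the Oct4 KO early ICM, Ccna2 (-0.0136 to 0.0903), Ccnb1 (-0.0761 to 0.0869) and Ccnd1 (-1.27 to 0.91), in the Oct4 KO late ICM Ccnd2 (-2.39 to 0.90) and Ccnd3 (-0.23 to 0.11), in the Sox2 KO early ICM Ccnd2 (-0.14 to 0.92), and in the Sox2 KO late ICM Ccnd2 (-0.30 to 2.27) and Cdk4 (-0.12 to 0.0118). In Oct4 MWT early ICMs it reversed Ccnb1 (-0.11 to 0.0541), Ccnd2 (-0.83 to 0.34), Cdk4 (-0.0463 to 0.0458) and Cdkn1b (-0.0529 to 0.65).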
